A study of Mus musculus with 12 samples.

Results

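The 10 genes described here encode chains of the fibrillar collagens and of the FACIT collagens (fibril-associated collagens with interrupted triple helices). They were taken by exact match of their symbols among 21936 listed genes, and all 10 were found: Col1a1, Col1a2, Col3a1, Col5a1, Col5a2, Col5a3 and Col11a1 for 7 fibril-forming chains, and Col12a1, Col14a1 and Col16a1 for 3 fibril-associated chains. The groups compared were PTRF knockout muscle, labelled as muscular dystrophy, and wild-type muscle, labelled as normal, both from C57BL/6N mice at 3 months of age. PTRF is the caveolar coat protein now called cavin 1. Neither the promoter nor the cell type of the deletion is given in the labels, and the labels leave unsaid whether a number stands for an animal. The p-values therefore rest on a spread between samples that may be technical.

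The labels list 12 samples, 3 for each genotype of soleus and of quadriceps. Soleus and quadriceps samples of one genotype and number were equal in every value (6 of 6 pairs, largest difference 0 TPM), so there were 6 distinct libraries, 3 knockout and 3 wild type, whose muscle cannot be told from the labels. No header names a unit, and values were read as TPM, a share of all transcripts in which each gene is divided by its transcript length and levels of different genes can be set side by side. The libraries summed to 848224 to 872482 TPM in the knockout and 843194 to 849159 TPM in wild type, and their read depth is unknown. Mitochondrial transcripts took up 39.0% to 45.7% of the knockout libraries and 43.0% to 52.3% of the wild-type libraries. Summed TPM of 16 myofibre genes ran from 57545 to 67118 in the knockout and from 52199 to 57353 in wild type, with Myh7, the myosin heavy chain of slow fibres, at 2196 to 3291 TPM in the knockout and 1702 to 2703 TPM in wild type. Myh4, the myosin heavy chain of the fastest fibres, was at 238, 580 and 346 TPM in the knockout and at 6.43, 193.5 and 4.21 TPM in wild type, so that wild-type library 2 stood apart from its group, as it did for Actn3 (104 TPM, against 9.67 and 22.8 TPM) and Myh1 (1369 TPM, against 546 and 548 TPM). Without that library the same number of the collagens, 8, was called higher. Over all 11056 genes tested, 2521 were called higher without it and 4016 with it. The part of fibre make-up in the collagen differences was not tested. Cavin1, the targeted gene, stood at 0.284, 0.0905 and 0.0254 TPM in the knockout libraries and at 45.2, 39.96 and 42.2 TPM in the wild-type libraries.

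Collagen I, III, V and XI molecules assemble into the banded fibrils that bear tension in the connective tissue around muscle fibres. Collagen V and XI chains are minor components that start fibrils and limit their width, while collagen XII, XIV and XVI molecules lie on or beside other matrix assemblies and link them to their surroundings. All are secreted by fibroblasts and related cells, and extra deposition of collagen I and III is a well-known feature of muscular dystrophy.

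The division into fibril-forming and fibril-associated chains can be read from the genes themselves. A collagen triple helix needs glycine at every 3rd residue, so its coding sequence has a GGN codon at every 3rd codon, and in the fibril-forming genes a part of this repeat is carried by exons of 54 bases. The first in-frame 54-base coding exon of this kind is shown for 6 of the genes, with the GGN codons in capitals, 5′ to 3′ on the coding strand of GENCODE M21 transcripts (GRCm38). The exons were picked by this pattern, so they show only that genes of both classes hold exons of this kind.
Col1a1, coding exon 8, chr11:94939904-94939957, plus strand: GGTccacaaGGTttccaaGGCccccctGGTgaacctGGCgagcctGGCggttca
Col3a1, coding exon 6, chr1:45325360-45325413, plus strand: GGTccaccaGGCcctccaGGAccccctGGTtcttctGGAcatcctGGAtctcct
Col5a2, coding exon 6, chr1:45434892-45434945, minus strand: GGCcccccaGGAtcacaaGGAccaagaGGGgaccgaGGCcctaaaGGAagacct
Col11a1, coding exon 15, chr3:114108281-114108334, plus strand: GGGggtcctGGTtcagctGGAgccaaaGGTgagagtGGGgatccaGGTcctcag
Col12a1, coding exon 54, chr9:79614349-79614402, minus strand: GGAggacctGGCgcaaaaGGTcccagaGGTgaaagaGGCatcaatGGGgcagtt
Col14a1, coding exon 36, chr15:55467960-55468013, plus strand: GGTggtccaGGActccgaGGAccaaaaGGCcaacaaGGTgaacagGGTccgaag

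What separated the classes was how long the repeat ran unbroken. In the 7 fibril-forming genes the longest run with GGN at every 3rd codon covered 1011 to 1032 codons, which was 55.2% to 74.1% of the coding sequence. The same measure was 96 codons in Col12a1, 96 in Col14a1 and 156 in Col16a1, or 3.13% to 9.87% of their codons. Exons of 54 bases made up 41.2% to 47.1% of the coding exons of the fibril-forming genes, 6.15% in Col12a1, 8.51% in Col14a1 and 17.4% in Col16a1, against 0.668% of 122685 coding exons over 11033 tested genes. Col16a1 had 14 separate runs of at least 10 GGN triplets, against 4 each in Col12a1 and Col14a1.

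**Figure D1:**
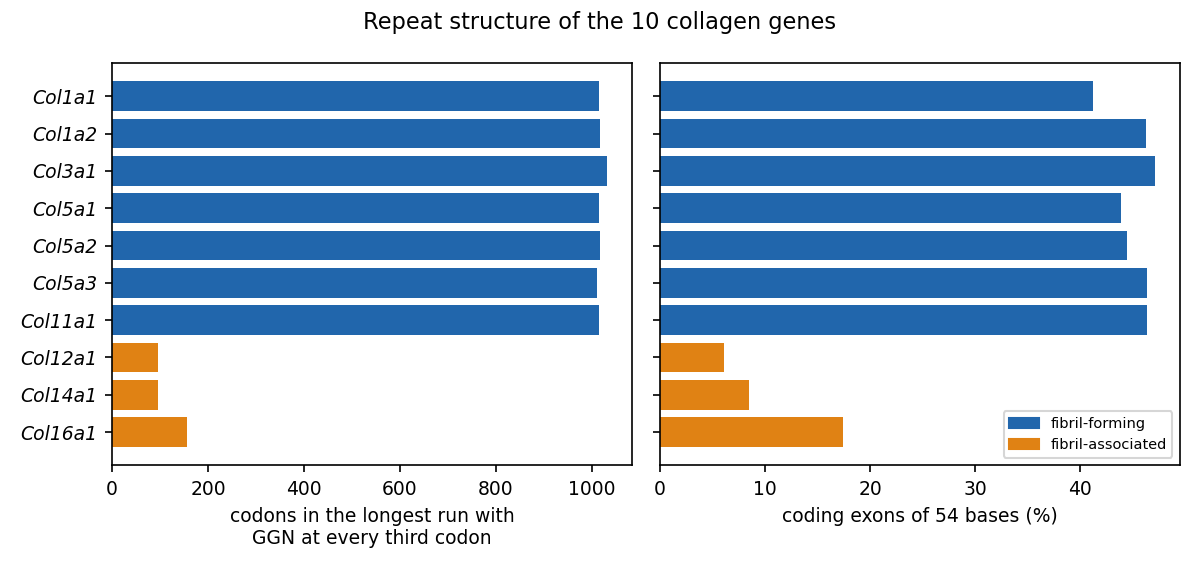
Codons in the longest run with GGN at every 3rd codon (left) and percentage of coding exons that are 54 bases long (right) for each of the 10 genes, from GENCODE M21. Blue bars are fibril-forming and orange bars fibril-associated chains; the runs cover 1011 to 1032 codons in the blue genes and 96 to 156 in the orange ones.

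In GRCm38 the genes lie as follows: Col1a1 at chr11:94936224-94953042 (plus strand), Col1a2 at chr6:4504814-4541544 (plus), Col5a1 at chr2:27886425-28039514 (plus), Col5a3 at chr9:20770050-20815067 (minus), Col11a1 at chr3:114030540-114220718 (plus), Col12a1 at chr9:79598991-79718831 (minus), Col14a1 at chr15:55307750-55520803 (plus) and Col16a1 at chr4:130047840-130099283 (plus). Col3a1 (chr1:45311538-45349706, plus strand) and Col5a2 (chr1:45374321-45503282, minus strand) are neighbours that face each other tail to tail, 24.6 kb apart with no protein-coding gene between them. Other annotated genes overlap 7 of the 10, on the same strand for Col1a2, Col3a1 and Col5a2 and on the opposite strand for 4 (Col5a1, Col5a3, Col12a1 and Col14a1). The use of strand in counting is not given in the sources used here, and reads from any of these partners cannot be told apart.

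Collagen transcripts were higher in the knockout for 8 of the 9 genes that could be tested, all 6 tested fibril-forming chains and 2 of 3 fibril-associated ones. Genes were tested where at least 3 libraries reached 1 TPM, with limma on log2(TPM + 1) and Benjamini-Hochberg adjustment over 11056 genes, at an adjusted p of 0.05. In that comparison 36.3% of all genes tested were called higher and 2.92% lower, 39.2% in either direction. After trimmed-mean rescaling of the libraries, 6 of the 9 were called higher, against 14.2% of all genes. The log2 fold changes of the 9 genes ran from 0.37 to 2.17 with a median of 1.29, beside a median of 0.33 over all genes tested. Knockout and wild-type values did not overlap for the same 8 genes, where 48.7% of all genes tested were higher without overlap. Each of the 9 tested genes reached 1 TPM in all 3 knockout libraries and in at least 2 wild-type libraries, so none was tested through the knockout alone. More cells of a type and more RNA per cell cannot be told apart in muscle RNA of this kind.

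**Figure D2:**
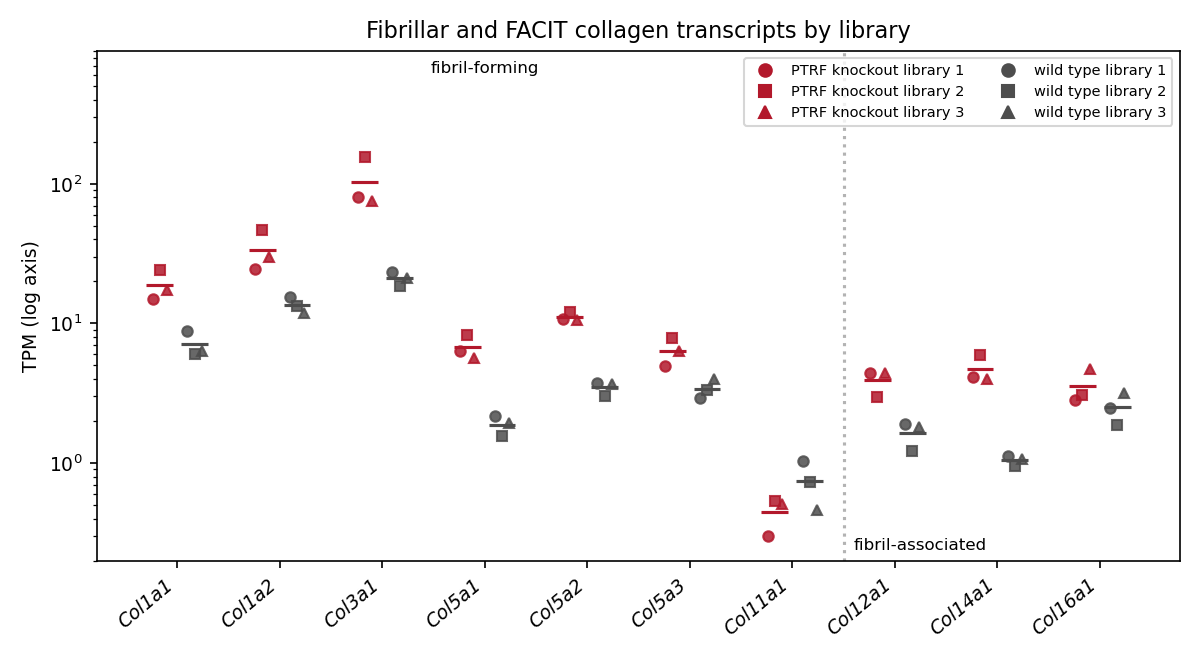
TPM (log axis) of the 10 collagen genes in each library, PTRF knockout in red left of wild type in grey, with a line at each group's mean of 3 libraries. Col3a1 shows the widest gap, at 74.97 to 156 TPM in the knockout and 18.4 to 23.4 TPM in wild type, and Col11a1 and Col16a1 overlap between genotypes.

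Col3a1 encodes the single chain of collagen III, which co-assembles with collagen I in compliant tissues. It was the most abundant of the 10 in every library, at 80.0, 156 and 74.97 TPM in the knockout and 23.4, 18.4 and 21.3 TPM in wild type. All knockout values lay well above the wild-type values, and knockout library 2 stood apart as the highest. The means were 103.5 ± 45.2 TPM in the knockout and 21.1 ± 2.503 TPM in wild type (SD, n = 3 each, as for every mean given with ±), 4.92-fold apart. The log2 fold change was 2.17 (SE 0.24, limma adjusted p = 6.1e-05), larger than that of 99.3% of the genes tested. Without knockout library 2 it was 1.84.

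Col1a1 and Col1a2 encode the alpha 1 and alpha 2 chains of collagen I, the main fibril protein of tendon, skin and scar. Col1a1 was at 14.9, 24.1 and 17.5 TPM in the knockout and at 8.90, 6.00 and 6.32 TPM in wild type. Col1a2 was at 24.7, 46.9 and 30.1 TPM in the knockout and at 15.5, 13.3 and 12.0 TPM in wild type. Knockout values lay above all wild-type values for both, and library 2 was again the highest of the knockout. Col1a1 rose 2.66-fold on the means (log2 fold change 1.29, SE 0.20, adjusted p = 0.00048) and Col1a2 rose 2.49-fold (1.21, SE 0.21, adjusted p = 0.0012). With the trimmed-mean scale, on which the median gene stood at -0.01, Col1a2 no longer passed (log2 fold change 0.84, adjusted p = 0.052), while Col1a1 passed at 0.93 (adjusted p = 0.022).

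Collagen V chains combine in differing sets with each other and are built into collagen I fibrils. Col5a1 was at 6.36, 8.20 and 5.66 TPM in the knockout and at 2.17, 1.55 and 1.92 TPM in wild type, a 3.58-fold rise of the mean. Col5a2 was at 10.8, 12.1 and 10.6 TPM in the knockout and at 3.77, 3.03 and 3.71 TPM in wild type, a 3.19-fold rise with the closest agreement between knockout libraries of the 10 genes (coefficient of variation 7.46%). Col5a3, the third chain of the type, was at 4.93, 7.87 and 6.35 TPM in the knockout and at 2.93, 3.33 and 3.999 TPM in wild type, a 1.87-fold rise. The groups were separate for all 3 genes, with the narrowest gap in Col5a3. Log2 fold changes were 1.42 for Col5a1 (SE 0.16, adjusted p = 6.9e-05), 1.44 for Col5a2 (SE 0.14, adjusted p = 2.6e-05) and 0.73 for Col5a3 (SE 0.17, adjusted p = 0.0072). The Col5a3 call was lost after quantile normalization (0.31, adjusted p = 0.26) and after trimmed-mean rescaling (0.41, adjusted p = 0.15).

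Col11a1, a minor fibril chain best known from cartilage, was the lowest of the 10, at 0.300, 0.532 and 0.510 TPM in the knockout and at 1.03, 0.734 and 0.459 TPM in wild type. It reached 1 TPM in wild-type library 1 alone and was not tested. The groups overlapped, and with no filter its log2 fold change was -0.26 (SE 0.13, limma adjusted p = 0.21). Markers of cartilage and bone were at 3.14 to 3.65 TPM summed over 10 genes in the knockout and 3.81 to 6.83 TPM in wild type, with Matn1, Sp7 and Bglap at 0 or missing from the table, and then set to 0, in every library. The 1 of them tested, Sox9, a transcription factor of cartilage cells, fell to 2.501 ± 0.17 TPM in the knockout, against 5.42 ± 1.63 TPM in wild type (log2 fold change -0.84, adjusted p = 0.0054). Sox9 made up most of the sum in every library, so the sum does not stand for the other markers. Runx2, which did not reach the filter, was higher in the knockout with no overlap. It was at 0.699, 0.424 and 0.472 TPM there and at 0.110, 0.0790 and 0.0725 TPM in wild type. The part of these markers in the Col11a1 values was not tested.

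Among the fibril-associated chains, Col14a1 rose the most. Its product binds collagen fibrils by way of the proteoglycan decorin. It was at 4.15, 5.95 and 3.99 TPM in the knockout and at 1.12, 0.949 and 1.07 TPM in wild type, a 4.49-fold rise of the mean that is second among the 10 to Col3a1. Its log2 fold change was 1.46 (SE 0.16, adjusted p = 4.4e-05), and wild-type libraries differed from each other by a coefficient of variation of 8.39%.

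Col12a1, whose product decorates collagen I fibrils in tendon and the muscle connective tissue, was at 4.399, 2.96 and 4.397 TPM in the knockout and at 1.89, 1.22 and 1.82 TPM in wild type. The groups were separate, but here library 2 was the lowest of the knockout, the reverse of its place for all 7 fibril-forming genes. The mean was 2.38-fold higher (log2 fold change 0.89, SE 0.17, adjusted p = 0.0020).

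Col16a1, whose product is found beside fibrils and fibrillin microfibrils, was at 2.84, 3.09 and 4.71 TPM in the knockout and at 2.48, 1.88 and 3.16 TPM in wild type. The groups overlapped, and the log2 fold change of 0.37 (SE 0.19) did not pass (adjusted p = 0.13). It lay close to the median of all genes tested, 55.8% of which had a smaller change, and turned to -0.06 after quantile normalization.

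**Figure D3:**
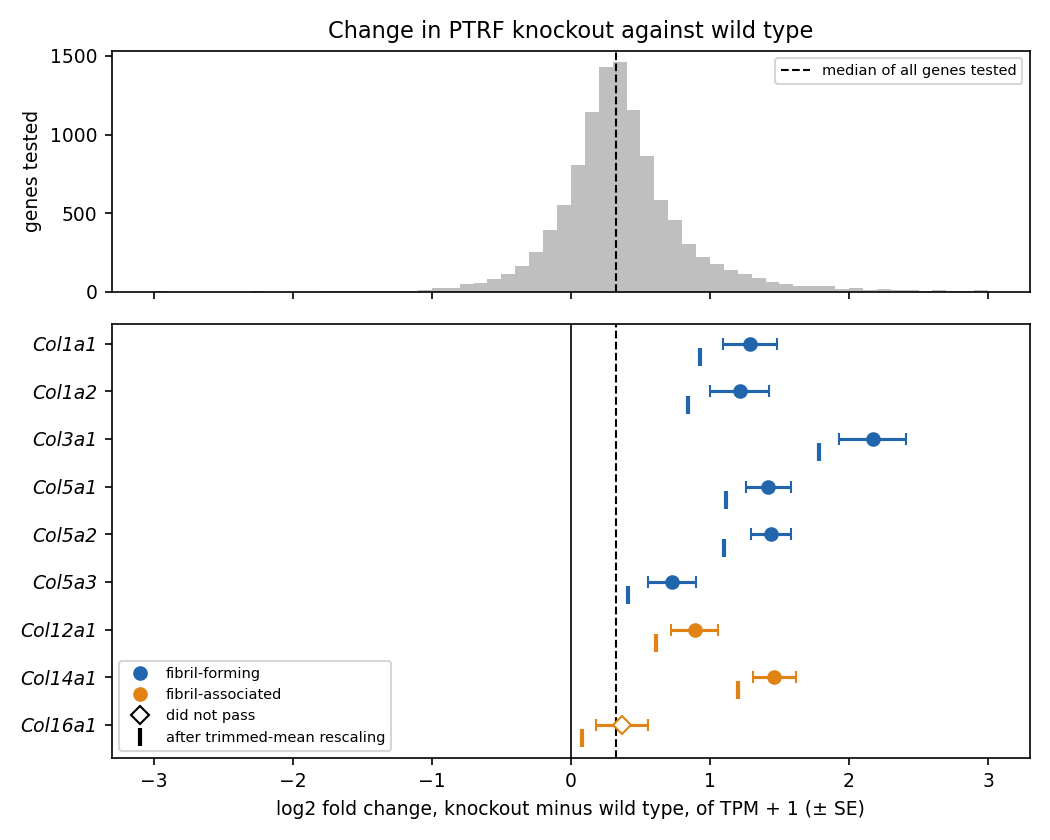
Log2 fold changes of TPM + 1, knockout minus wild type. The upper panel counts all 11056 genes tested (values beyond 3 drawn at the edge), with their median of 0.33 dashed; the lower panel shows the 9 tested collagens with SE bars, open where the test was not passed, and ticks after trimmed-mean rescaling. Col3a1 lies farthest right at 2.17 and Col16a1 sits near the dashed line.

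Summed over the class, fibril-forming transcripts stood at 142, 255 and 146 TPM in the knockout and at 57.8, 46.4 and 49.6 TPM in wild type, 3.53-fold higher on the means. Fibril-associated transcripts stood at 11.4, 12.0 and 13.1 TPM in the knockout and at 5.49, 4.05 and 6.05 TPM in wild type, 2.34-fold higher. The fibril-associated chains therefore made up 7.43%, 4.49% and 8.25% of the 10 genes' summed TPM in the knockout and 8.68%, 8.04% and 10.9% in wild type. These shares overlap between the genotypes, and the difference of -2.47 percentage points became -1.36 without knockout library 2 and -1.64 without wild-type library 3. Within the sum, Col3a1 took 47.2% to 58.2% in the knockout and 36.6% to 38.2% in wild type, while Col1a1 and Col1a2 together took 25.8% to 29.9% in the knockout and 32.8% to 38.6% in wild type. These sums are descriptions and were not tested, because the genes were chosen with results known.

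Ratios of a pair of collagen transcripts within a library do not depend on how the library was scaled, and 10 were compared. Each was tested by an exact two-sided permutation test of the log2 ratios, 3 against 3, whose smallest possible p is 0.1, and none could pass. The ratio of Col3a1 to Col1a1 was 5.37, 6.47 and 4.29 in the knockout and 2.63, 3.08 and 3.36 in wild type, 1.76-fold higher with no overlap (exact permutation p = 0.1, adjusted over the 10 ratios p = 0.17). Col5a1 to Col1a1 (1.35-fold) and Col14a1 to Col1a1 (1.67-fold) were also higher with no overlap. In contrast, Col16a1 to Col1a1 was at 0.53 of its wild-type value and Col5a3 to Col5a1 at 0.52, again with no overlap. The same p values, 0.1 and 0.17 after adjustment, hold for all 6 ratios without overlap by the exact permutation test.

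The ratio of Col1a2 to Col1a1, chains that the collagen I molecule needs in a fixed proportion, was 1.66, 1.95 and 1.72 in the knockout and 1.75, 2.21 and 1.89 in wild type. These overlapped, with a fold of 0.91 (exact permutation p = 0.4, adjusted p = 0.44). Col5a2 to Col5a1 overlapped as well, at 1.48 to 1.88 in the knockout and 1.73 to 1.95 in wild type (exact permutation p = 0.2, adjusted p = 0.29), as did Col5a2 to Col1a1 (exact permutation p = 0.3). Col12a1 to Col1a1 was 0.123 to 0.295 in the knockout and 0.204 to 0.288 in wild type (exact permutation p = 0.9), with knockout library 2 the lowest of all 6. Between the fibril-associated genes, Col12a1 to Col14a1 was 1.06, 0.498 and 1.10 in the knockout and 1.69, 1.29 and 1.71 in wild type, 0.54 of the wild-type value with no overlap.

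**Figure D4:**
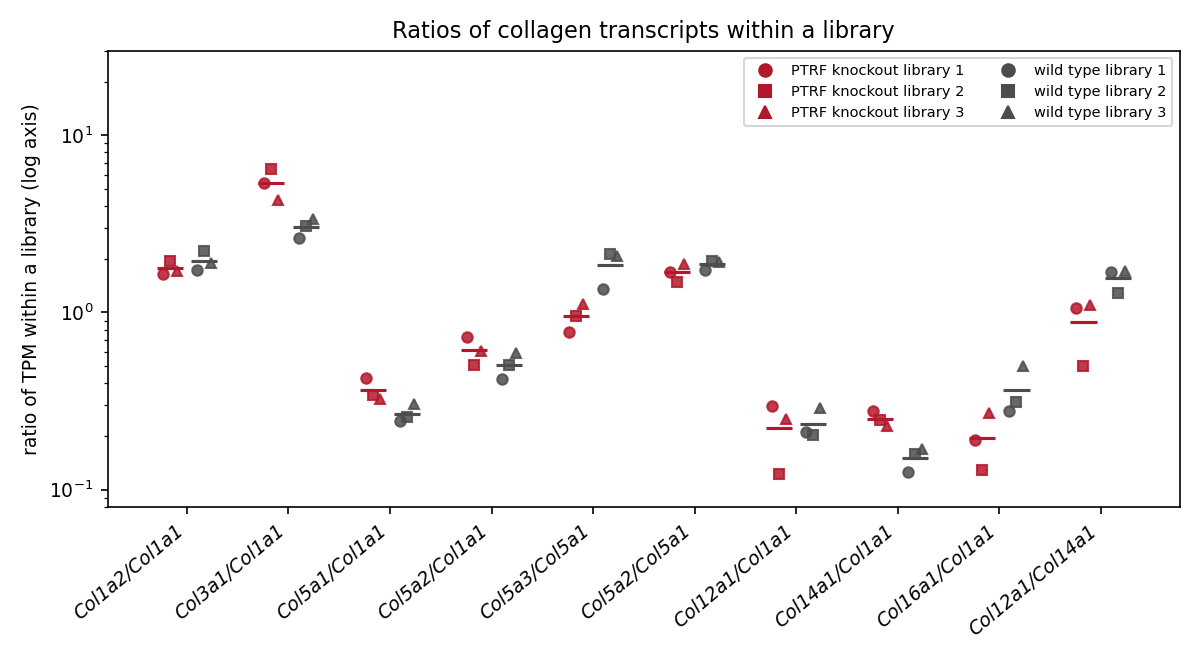
Ratios of TPM within a library (log axis) for 10 pairs of collagen genes, PTRF knockout in red left of wild type in grey, with a line at each group's mean. Col3a1/Col1a1 lies at 4.29 to 6.47 in the knockout and 2.63 to 3.36 in wild type, and Col1a2/Col1a1 overlaps.

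The order of the levels was led by Col3a1, Col1a2, Col1a1 and Col5a2 in both genotypes, with no overlap between neighbours among these 4. In the knockout, Col5a2 lay clear of Col5a1 at 10.6 to 12.1 against 5.66 to 8.20 TPM, and the run of Col5a1, Col5a3, Col14a1, Col12a1 and Col16a1 overlapped from neighbour to neighbour. In wild type, Col5a2, Col5a3, Col16a1, Col5a1 and Col12a1 overlapped from neighbour to neighbour. Col14a1 was rank 7 in the knockout and rank 9 in wild type, and Col16a1 was rank 9 in the knockout and rank 6 in wild type.

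Of 11 further genes for fibril-forming and fibril-associated chains, 10 were listed and 3 reached the filter, and none passed in either direction. Col11a2 was tested through the wild-type libraries alone. Col11a2, a partner chain of Col11a1, was at 0.563, 0.852 and 0.993 TPM in the knockout and at 1.47, 1.10 and 1.37 TPM in wild type, with no overlap (log2 fold change -0.36, adjusted p = 0.058). Col24a1, another fibrillar chain, was at 0.640, 0.788 and 1.23 TPM in the knockout and at 1.70, 1.05 and 2.59 TPM in wild type (-0.53, adjusted p = 0.052). Both were called lower after trimmed-mean rescaling. Col22a1, a fibril-associated chain of the muscle-tendon junction, was at 2.08 to 3.70 TPM in the knockout and 1.70 to 2.36 TPM in wild type (adjusted p = 0.28). Col27a1 did not reach the filter, at 0.6999 to 0.889 TPM in the knockout and 0.203 to 0.416 TPM in wild type.

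The counts of the lists by role and by cell type stand beside 36.3% of all genes tested called higher on the deposited scale and 14.2% on the trimmed-mean scale. Of 20 genes for hydroxylation, glycosylation and folding of procollagen, 19 were tested, 15 were higher and none lower (median log2 fold change 0.72; 7 of 18 higher after trimmed-mean rescaling). Serpinh1, the collagen chaperone HSP47, was at 40.4, 30.1 and 45.8 TPM in the knockout and at 16.6, 11.1 and 17.2 TPM in wild type (adjusted p = 0.00047), so that knockout library 2, the highest for Col1a1 and Col3a1, was the lowest of its group for this chaperone. Fkbp10, a prolyl isomerase that acts on collagen, rose to 4.37 ± 0.82 TPM, against 1.56 ± 0.05 TPM in wild type. P4ha2, a prolyl 4-hydroxylase subunit, was at 16.2 ± 3.93 TPM in the knockout and 11.5 ± 1.92 TPM in wild type (adjusted p = 0.083) and passed without knockout library 2 (adjusted p = 0.013).

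Of 13 genes for procollagen export and propeptide removal, 9 were tested, 5 were higher and none lower (median 0.49; 3 higher and 2 lower after trimmed-mean rescaling). Adamts2, which cuts the amino-terminal propeptide, rose to 3.03 ± 0.10 TPM, against 1.29 ± 0.22 TPM in wild type, a call lost after quantile normalization (adjusted p = 0.063). Pcolce, which enhances removal of the carboxyl-terminal propeptide, rose to 22.0 ± 1.35 TPM, against 10.3 ± 1.11 TPM in wild type. Mia2, an export gene, was at 38.4 ± 2.23 TPM in the knockout and 45.0 ± 3.96 TPM in wild type (adjusted p = 0.21), and was called lower after trimmed-mean rescaling (adjusted p = 0.0052).

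All 5 tested genes of the 6 for collagen crosslinking were higher, also on the trimmed-mean scale (median log2 fold change 1.43). The lysyl oxidase gene Loxl1 was at 7.79, 8.43 and 11.2 TPM in the knockout and at 2.54, 1.78 and 2.95 TPM in wild type (adjusted p = 6.9e-05). Tgm2, a transglutaminase, was at 64.3, 42.0 and 56.8 TPM in the knockout and at 18.2, 19.2 and 20.5 TPM in wild type (adjusted p = 9.4e-05).

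Of 20 fibril-binding proteoglycans and glycoproteins, 19 were tested, 15 were higher and none lower (median 1.23; 14 higher after trimmed-mean rescaling), with Tnc tested through the knockout libraries alone. Postn, encoding periostin, rose to 30.9 ± 2.91 TPM, against 5.64 ± 2.92 TPM in wild type, and Thbs4, encoding thrombospondin 4, to 103.9 ± 22.8 TPM, against 21.6 ± 4.20 TPM in wild type. Fmod, encoding fibromodulin, a proteoglycan of tendon fibrils, was at 28.9 ± 8.78 TPM in the knockout and 27.02 ± 7.34 TPM in wild type (adjusted p = 0.78).

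Of 11 collagen receptors 8 were tested, 6 were higher and none lower (median 0.79; 4 of 7 higher after trimmed-mean rescaling), with Itga10 and Itga11 tested through the knockout libraries alone. Ddr1, a receptor kinase activated by collagen, rose to 7.52 ± 0.28 TPM, against 2.46 ± 0.26 TPM in wild type. Mrc1, a macrophage receptor that also takes up collagen, rose to 6.58 ± 0.37 TPM, against 1.51 ± 0.29 TPM. Itga1, an integrin subunit that binds collagen, was at 3.28 ± 0.14 TPM in the knockout and 2.78 ± 0.09 TPM in wild type (adjusted p = 0.27).

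Genes of collagen breakdown and its inhibition also differed, with 7 of 11 tested higher and none lower out of 17 (median 0.87; 5 higher and 2 lower after trimmed-mean rescaling). Ctsk, a collagen-cleaving cathepsin, rose to 8.05 ± 0.87 TPM, against 2.17 ± 0.30 TPM in wild type, and Timp1, an inhibitor of the matrix metalloproteinases, to 8.64 ± 0.72 TPM, against 0.71 ± 0.19 TPM. Timp1 reached 1 TPM in no wild-type library and was tested through the knockout libraries alone. Ctsl, a lysosomal cathepsin, was at 124.9 ± 15.5 TPM in the knockout and 97.4 ± 13.8 TPM in wild type (adjusted p = 0.095).

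In the TGF-beta pathway, whose signal raises collagen transcription in fibroblasts, 17 of 20 genes were tested, 14 were higher and none lower (median 0.78; 7 higher after trimmed-mean rescaling). Tgfb1, a ligand, was at 8.57, 6.73 and 9.45 TPM in the knockout and at 2.64, 1.60 and 2.57 TPM in wild type (adjusted p = 8.3e-05). Ltbp1, which holds the latent ligand in the matrix, rose to 7.54 ± 1.08 TPM, against 3.13 ± 0.54 TPM in wild type. Ccn2, a widely used target of the pathway, was at 42.8, 46.6 and 99.4 TPM in the knockout and at 33.1, 39.5 and 38.4 TPM in wild type and did not pass (adjusted p = 0.069), although it did without knockout library 1 (adjusted p = 0.036) or without knockout library 2 (adjusted p = 0.032), and with the 10 TPM filter (adjusted p = 0.031). Its log2 fold change of 0.65 became 0.27 without knockout library 3, which held the highest value.

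**Figure D5:**
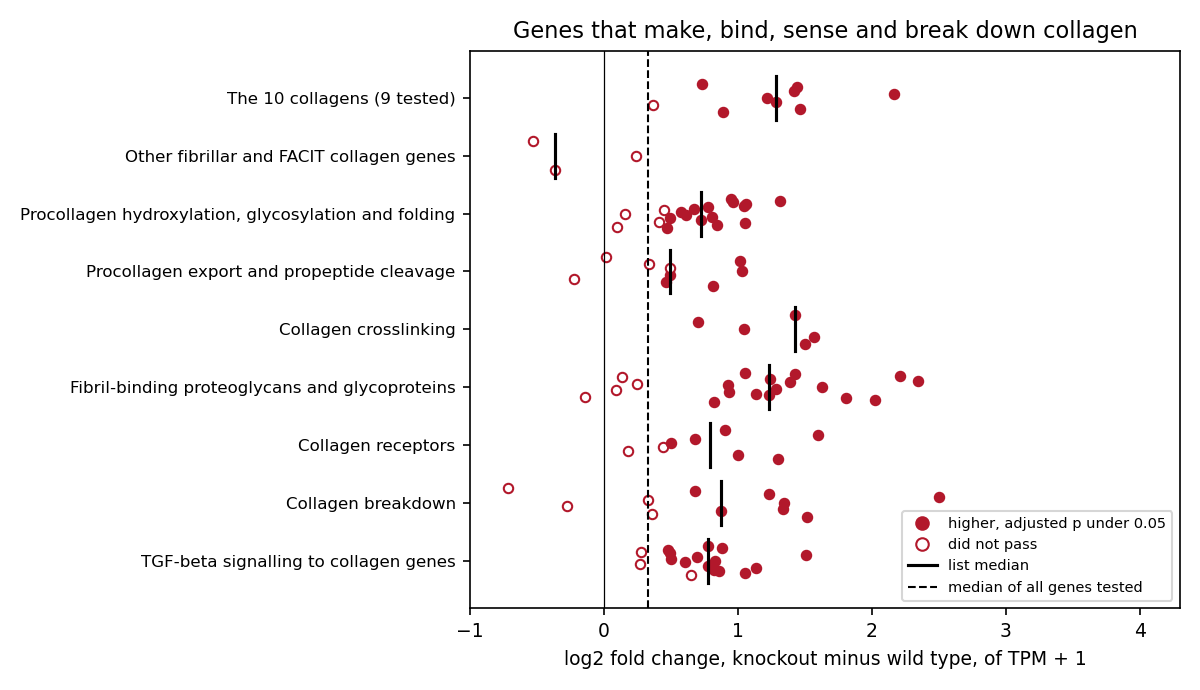
Log2 fold changes of TPM + 1, knockout minus wild type, for the tested collagens and for each list of genes by role; filled points passed the limma test and open points did not, black bars are list medians and the dashed line is the median of all genes tested (0.33). Medians lie between 0.49 and 1.43, except for the further fibrillar and FACIT genes at -0.36.

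Markers of several other cell types differed between the genotypes, and those of others did not pass. Fibroblast and fibro-adipogenic progenitor markers were higher for 14 of 15 tested genes of 16 (median log2 fold change 1.13; 10 higher after trimmed-mean rescaling), Osr1 through the knockout libraries alone, with sums of 787 to 920.5 TPM in the knockout and 291 to 334 TPM in wild type. Within the knockout this sum was lowest in library 2, where Col1a1, Col1a2 and Col3a1 were highest. The sum was weighted to Ly6a and Gsn, the most abundant of these markers, and both were lowest in that library. Pdgfra, Pdgfrb, Dpep1, Mfap5 and Osr1 were also lowest there. Thy1, Pi16, Dpt, Lum, Cd248, Clec3b and Tcf21 were instead highest there, and Cd34 and Smoc2 lay between. The sum therefore does not stand for the single markers in that library. Cd34, a surface antigen of these progenitors, rose to 53.2 ± 3.13 TPM, against 16.3 ± 2.16 TPM in wild type, and Mfap5, a microfibril protein, to 50.1 ± 8.88 TPM, against 12.8 ± 1.62 TPM. Tcf21 was at 0.0417 TPM in knockout library 2 and at 0 or missing in the other 5 libraries. The part of these markers in the collagen differences was not tested.

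Activated myofibroblast markers were higher for 3 of 5 tested of 7 (71.3 to 89.8 TPM summed in the knockout, 44.5 to 53.9 TPM in wild type), also after trimmed-mean rescaling. Of these 3, Cthrc1 and Tnc were under 1 TPM in wild type and were tested through the knockout libraries alone. Cthrc1, a secreted protein of collagen-making cells, rose to 2.40 ± 0.28 TPM, against 0.26 ± 0.21 TPM in wild type, while Acta2, smooth muscle actin, was at 22.6 ± 3.74 TPM in the knockout and 23.5 ± 1.98 TPM in wild type (adjusted p = 0.77). Tagln did not pass either, at 19.6 ± 4.04 TPM in the knockout and 19.4 ± 0.23 TPM in wild type (limma adjusted p = 0.98). The gap between the summed values lay mostly in Postn, at 28.4 to 34.1 TPM in the knockout and 3.64 to 8.99 TPM in wild type. Tendon markers were higher for 2 and lower for 1 of 6 tested of 7 (142 to 212 TPM in the knockout, 53.8 to 87.3 TPM in wild type), the same counts as after trimmed-mean rescaling. The share higher, 33.3%, is no larger than over all genes on the deposited scale, and the median log2 fold change was -0.03. The sum was weighted to Thbs4, at 88.4 to 130 TPM in the knockout and 17.8 to 26.1 TPM in wild type. Chad was the 1 called lower, at 3.11 ± 0.68 TPM in the knockout and 5.50 ± 2.37 TPM in wild type (limma adjusted p = 0.049). Scx, a transcription factor of tendon cells, was at 39.3, 18.4 and 32.4 TPM in the knockout and at 4.88, 2.38 and 3.76 TPM in wild type, while Tnmd, a marker of mature tendon cells, was at 2.10 to 5.38 TPM in the knockout and 4.304 to 8.25 TPM in wild type (adjusted p = 0.13). The part of both lists was not tested.

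All 13 tested macrophage and monocyte markers of 14 were higher (205 to 255 TPM summed in the knockout, 41.0 to 49.1 TPM in wild type), as were 12 of 12 after trimmed-mean rescaling. Of the 13, 3 (Adgre1, Itgam and Aif1) were tested through the knockout libraries alone. Ctss, a cathepsin of these cells, rose to 18.0 ± 0.48 TPM, against 2.42 ± 0.33 TPM in wild type, and Tyrobp, a signalling adaptor, to 12.3 ± 0.55 TPM, against 1.82 ± 0.31 TPM. Endothelial markers were higher for 9 and lower for 1 of 11 (306 to 359 TPM in the knockout, 170 to 198 TPM in wild type; 8 higher and 2 lower after trimmed-mean rescaling), with Pecam1 at 80.1 ± 10.3 TPM in the knockout and 28.1 ± 0.83 TPM in wild type and Emcn at 24.7 ± 2.11 TPM in the knockout and 10.3 ± 0.34 TPM in wild type. The 1 called lower was Kdr, at 4.54 ± 0.98 TPM in the knockout and 10.05 ± 1.84 TPM in wild type (limma adjusted p = 0.0013). Flt1 did not pass (limma adjusted p = 0.77). Smooth muscle and pericyte markers were higher for 3 of 9 tested of 10 (249 to 262 TPM in the knockout, 199 to 212 TPM in wild type; 2 after trimmed-mean rescaling), Mcam and Cspg4 among them, a share of 33.3% that is no larger than over all genes. None of 4 tested Schwann cell markers of 8 (47.6 to 59.0 TPM in the knockout, 43.5 to 51.1 TPM in wild type) and none of 7 tested adipocyte markers of 8 (541 to 602 TPM in the knockout, 408 to 529.6 TPM in wild type) passed, although 2 Schwann cell markers were called lower after trimmed-mean rescaling. Myofibre genes were higher for 4 of 16 (Des, Neb, Myh4 and Actn3), a share of 25% that is under that of all genes, and on the trimmed-mean scale 1 was higher and 2 were lower. The Myh4 call was lost there (adjusted p = 0.051) and with no filter (adjusted p = 0.067). The part of these lists in the collagen differences was not tested.

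Profiles over the 6 libraries were compared by the root mean square difference of log2(TPM + 1) values, each gene centred on its mean. The search covered 6935 genes outside the 10 with a mean of at least 5 TPM. Whether the nearest were nearer than a search of this size gives by itself was not tested. Nearest to Col1a1 was Fn1, the fibronectin gene (difference 0.085), closer than Col1a2 (0.12), with Dab2, Lbp, Stx6 and Bhlhe40 next at 0.14 to 0.16. Fn1 was at 18.7, 34.3 and 21 TPM in the knockout and at 11.3, 7.62 and 8.90 TPM in wild type, also highest in knockout library 2. Nearest to Col14a1 were Pxdn (0.073), Ctsk, Lbp, Pros1 and Tspan2 (0.11 to 0.14), and among the collagens Col5a1 (0.070) and Col5a2 (0.11). Nearest to Col12a1 were Bcl7c (0.031), Pfn1, Nr1h2, Mical3 and S100a16 (0.062 to 0.072), and no other collagen of the 10 came nearer to it than Col16a1 at 0.33. The TPM + 1 scale understates changes of low genes, and on the means Col12a1 rose 2.38-fold and Bcl7c 1.92-fold.

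Promoter sequence was matched for 6 of the 10 genes in RefSeq (GRCm38.p6), each from 250 bases before to 50 bases after the listed start: Col1a2, Col3a1, Col5a1, Col5a3, Col11a1 and Col16a1. Col1a1, Col5a2, Col12a1 and Col14a1 were not matched. The motifs searched on both strands were the TATA box TATAAA, the CCAAT box CCAAT and the GC box GGGCGG, held by 13.6%, 37.4% and 35.7% of 32851 promoters of this length, with no motif overlapping another in the windows shown. The start listed for Col1a2 lies 804 bases downstream of the start of the GENCODE gene, while for the other 5 both annotations give the same start. The windows of Col1a2 and Col3a1, whose transcripts rose together, and of Col11a1, which was lower in mean, are shown 5′ to 3′ on the gene's strand with these motifs in capitals.
Col1a2, chr6:4505368-4505667, plus strand: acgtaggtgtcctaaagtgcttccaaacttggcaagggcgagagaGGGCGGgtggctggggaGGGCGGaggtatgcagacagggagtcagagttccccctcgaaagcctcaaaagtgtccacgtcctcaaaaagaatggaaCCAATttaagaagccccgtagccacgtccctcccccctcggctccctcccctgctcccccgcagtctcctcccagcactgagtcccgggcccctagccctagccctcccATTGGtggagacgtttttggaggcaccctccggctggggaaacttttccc
Col3a1, chr1:45311288-45311587, plus strand: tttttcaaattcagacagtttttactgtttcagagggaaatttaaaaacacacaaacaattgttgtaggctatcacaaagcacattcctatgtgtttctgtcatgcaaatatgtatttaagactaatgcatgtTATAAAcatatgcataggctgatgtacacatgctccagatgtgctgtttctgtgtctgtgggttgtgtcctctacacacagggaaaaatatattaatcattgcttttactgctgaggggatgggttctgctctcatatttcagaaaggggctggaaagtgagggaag
Col11a1, chr3:114030290-114030589, plus strand: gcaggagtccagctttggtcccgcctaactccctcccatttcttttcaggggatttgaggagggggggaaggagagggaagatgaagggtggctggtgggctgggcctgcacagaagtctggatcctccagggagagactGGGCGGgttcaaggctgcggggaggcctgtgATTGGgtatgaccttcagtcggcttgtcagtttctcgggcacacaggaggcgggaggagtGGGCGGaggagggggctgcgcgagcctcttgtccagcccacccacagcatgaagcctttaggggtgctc

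The Col3a1 window was 37.7% G and C with 1 TATAAA match and neither of the other motifs. The Col1a2 window was 61.0% G and C with 2 CCAAT boxes, 2 GC boxes and no TATAAA. Col11a1, at 62.3%, held 1 CCAAT box and 2 GC boxes, as did Col16a1 at 74.3%. Col5a1 (75%) held 2 GC boxes alone, and Col5a3 (63.3%) held 1 CCAAT box and 3 GC boxes. Only the Col3a1 window of the 6 held TATAAA, and its distance from the start was not weighed. A TATAAA beyond a window would be missed, and the start listed for Col1a2 lies downstream of the start of the GENCODE gene. Starts of single GENCODE transcripts were not compared. Whether the genes differ in having a TATA box cannot be told from these windows. A match describes letters in a window and not a site in use.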

How the data were processed

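Poly(A) RNA was isolated with TRIzol and made into libraries with a NEBNext Ultra kit, per the labels' protocols. The submitters' processing notes name kallisto 0.43.0, STAR 2.5.3a, mm10 and GRCm38, without saying which did what. The deposited values were taken as TPM from the values alone, since no header names a unit. TPM keeps no depth and is a share, so abundant mitochondrial transcripts move all other genes. Genes missing from a library were set to 0. Equal soleus and quadriceps samples were counted once.

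Genes with at least 1 TPM in 3 libraries were fitted with limma 3.58.1 (R 4.3.3) on log2(TPM + 1) with an intensity trend, over 4 residual degrees of freedom. Fold changes on this scale understate changes of low genes. Ratios were compared by exact permutation tests. Tables were made with pandas 2.3.3 in Python 3.11.15, tests of ratios with numpy 2.4.6, plots with matplotlib 3.10.9. The fit was tested on simulated data first.

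The members and lists were chosen with earlier results of these data known. Beside the 10 collagens, the text names from each role list the 2 passing genes of smallest adjusted p and the most abundant gene that did not pass, 2 passing genes of each cell list, and 5 genes nearest in profile to each of Col1a1, Col12a1 and Col14a1. Other genes were named after their values were seen. Of 214 listed genes, 11 stand on more than 1 list. Alternatives tried were a nuclear-only scale, trimmed-mean rescaling (trimming 30% by ratio, 5% by level), quantile normalization, no intensity trend, a 10 TPM filter or none, pseudocounts of 5 or 0.1, a replicate block, and fits with libraries left out. Gene models are from GENCODE M21 and promoters from RefSeq.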

Additional observations from a re-analysis of the deposited data

How the results depend on the processing

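The number of collagens called was 8 in the main analysis and under every alternative except 3. It was 7 after quantile normalization, 6 after trimmed-mean rescaling, and 4 of 4 tested with the 10 TPM filter, leaving fewer genes to test. Over all genes, 1403 of 11056 were called higher after quantile normalization, 1561 of 10981 after trimmed-mean rescaling and 1616 of 4887 with that filter. With 1 library left out, 2521 to 4561 of 11056 genes were called higher. The fibril-associated share of the sum differed by -3.24 to -1.36 percentage points with 1 library left out. Over all genes the deposited scale called 4339, of which 4016 were higher and 323 lower. The call count was 2852 after quantile normalization (1403 higher, 1449 lower), 3040 after trimmed-mean rescaling (1561 higher, 1479 lower) and 3396 on the nuclear-only scale (2635 higher, 761 lower). A filter at 10 TPM gave 1839, leaving out knockout library 1 with wild-type library 2 gave 2238, and the count was 2783 (without wild-type library 2) to 4912 (without knockout library 2) with 1 library left out. The cause was not tested.

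Among genes that had not passed, the log2 fold change turned for Col16a1 (-0.058), Col22a1 (-0.18), Fmod (-0.23) and Itga1 (-0.25) after quantile normalization, and for Col22a1 (-0.031), Ctsl (-0.033), Fmod (-0.30) and Itga1 (-0.12) after trimmed-mean rescaling. Fmod also turned on the nuclear-only scale (-0.11), without knockout library 3 (-0.13) and without wild-type library 3 (-0.12), over a range of -0.13 to 0.28 with 1 library left out. The log2 ratio Col5a2/Col5a1, -0.16, became 0.020 with 1 TPM added to both genes. The log2 ratio Col12a1/Col1a1, -0.15, ranged between -0.40 and 0.23 with 1 library left out, the higher end without knockout library 2, and was 0.0054 without wild-type library 3. The cause was not tested. With the replicate number as a block, 4373 genes and 8 collagens passed, as did P4ha2 (adjusted p = 0.040) and Ccn2 (adjusted p = 0.028), which had not passed without it. Same-numbered libraries did not deviate together (correlations 0.028, -0.0081 and 0.037), so the numbers are not taken as pairs. TPM files give no depth, and with 3 libraries a group the exact tests cannot pass.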
